A study of Mus musculus with 12 samples.

Results

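Bone marrow monocytes and macrophages of healthy mice were followed between 21 and 31 days of an experiment in which other animals carried leukemia. Of the 12 arrays of the series, the 6 arrays of mice that had received no MEC1 cells were compared, 3 mice at 31 days against 3 mice at 21 days. All of these animals were Rag2-/-gamma c-/- on a BALB/c background, so all of them lacked Rag2 and the common gamma chain and with these the T, B and natural killer cells. The mice were 11 weeks old at 21 days and 13 weeks old at 31 days, and they served as age-matched controls for the early and the late stage of disease in animals given MEC1, a human chronic lymphocytic leukemia cell line. Cells were purified from marrow by magnetic separation, and the RNA of each mouse was read on 1 Clariom D array. Age and day of collection changed together, and litters, collection days and array batches are not given in the sources used here, so that age cannot be told apart from them. Mouse numbers marked separate animals, so the p-values measure the spread between mice.

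Monocytes arise in the marrow from progenitors shared with neutrophils, circulate, and can become macrophages. Both cell types sense microbes and damage through pattern recognition receptors, many of which signal to the transcription factor NF-kB. NF-kB induces cytokine genes and also its own inhibitors, so that the response limits itself, and immediate-early genes such as Fosb are transcribed within a short time of many kinds of stimulus. Levels below are log2 intensities, on which a difference of 1 is a doubling. A probe set called a transcript cluster was tested where it lay above the array's median in at least 3 of the 6 arrays, and each gene was represented by 1 cluster, that of highest mean. This left 33403 clusters and 17955 named genes. Intensities of different probes do not rank abundance.

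The array of 21 d replicate 1 stood apart from the others. Its correlation with the other 5 arrays over tested clusters ranged from 0.954 to 0.974, while all pairs among those 5 lay between 0.984 and 0.992. It took the extreme position, 100, on a first principal component that held 53% of the variance, and 31 d replicate 1 lay at the opposite end at -61. Hybridisation controls, which are added after labelling, averaged 10.81 ± 0.0872 at 21 days and 10.62 ± 0.127 at 31 days (SD, n = 3), and the groups did not overlap (difference -0.193, exact permutation test, two-sided, p = 0.1, the smallest that 3 against 3 mice allow). Mitochondrial transcripts averaged 10.27 and 10.25 (exact permutation p = 1). Values without 21 d replicate 1 are therefore given beside the results that rest on it.

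The fraction carried monocyte genes at high intensity, and it also carried genes of granulocytes and red cell precursors. All 8 monocyte and macrophage markers with a cluster of their own lay above the array median in every mouse, and 5 of them lay above the 90th percentile. Csf1r, the receptor for the growth factor CSF1, stood at 11.52, 11.59 and 11.97 at 21 days and at 11.87, 11.61 and 11.68 at 31 days. Itgam, which encodes the CD11b integrin chain, stood at 13.57, 13.36 and 13.57 and at 13.31, 13.33 and 13.39. Both groups overlapped for these genes. Ccr2, the chemokine receptor of classical monocytes, ranged from 13.02 to 13.54 over the 6 mice, and Ly6c2 from 19.29 to 19.44, close to the highest value in the table, 19.93, where differences may be compressed.

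Markers of tissue macrophages ranged from the floor to intermediate levels. Of 9, 4 lay above the array median in every mouse, 3 lay below it in every mouse, and none lay above the 90th percentile in every mouse. Mertk, a receptor for dying cells, ranged from 3.40 to 3.59, and the complement gene C1qb from 3.48 to 3.86, where the array medians lay between 3.80 and 3.93. Timd4 and Spic, a transcription factor of red pulp macrophages, reached no more than 3.86 and 3.42. Siglec1, a sialic acid receptor, ranged from 4.71 to 5.36, the haptoglobin-hemoglobin receptor gene Cd163 from 4.41 to 4.69, and C1qa from 3.97 to 4.30. Vcam1, an adhesion molecule of erythroblastic island macrophages, was the highest of the 9, at 7.22, 9.00 and 8.96 at 21 days and 8.84, 8.19 and 9.53 at 31 days. Of the 13 neutrophil markers, all lay above the median in every mouse and 10 above the 90th percentile, among them the granule genes Mpo, at 17.46 or above, and Camp, at 15.99 to 18.43. The eosinophil granule gene Prg2 ranged from 18.96 to 19.45 and the basophil protease gene Mcpt8 from 13.54 to 15.38. Slc4a1, the red cell anion exchanger, ranged from 12.75 to 14.53. In bulk RNA, fewer cells of a type and less RNA per cell cannot be told apart, and these levels do not measure purity.

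Lymphocyte genes ranged from background to low levels. Of the 6 B lineage markers with a cluster of their own, 3 lay above the array median in every mouse and 3 below it. Cd3e of T cells ranged from 3.54 to 3.82, Ncr1 of natural killer cells from 3.14 to 3.47, and the B cell receptor chain Cd79a from 3.63 to 3.87. Cd79b was higher, at 5.26 to 5.84 in the 6 mice, the B cell transcription factor gene Pax5 ranged from 4.53 to 4.77 and the pre-B receptor gene Vpreb1 from 4.12 to 4.51. In the longer B lineage list 13 of 19 genes were bright enough to be tested and 11 of these lay above the median in every mouse, among them the interleukin 7 receptor gene Il7r at 4.49 to 6.08 and Dntt, of early lymphoid cells, at 4.36 to 6.04. None lay above the 95th percentile in every mouse. Of the deleted genes, Rag2 ranged from 3.82 to 4.29. Where the probes lie relative to the deleted segment was not examined, so this level does not check the genotype. Il2rg, which encodes the common gamma chain, has no value here. Xist, the transcript of the inactive X chromosome, ranged from 15.18 to 16.17 and the Y-linked gene Uty from 3.74 to 3.96, so all 6 mice gave the same pattern.

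**Figure D1:**
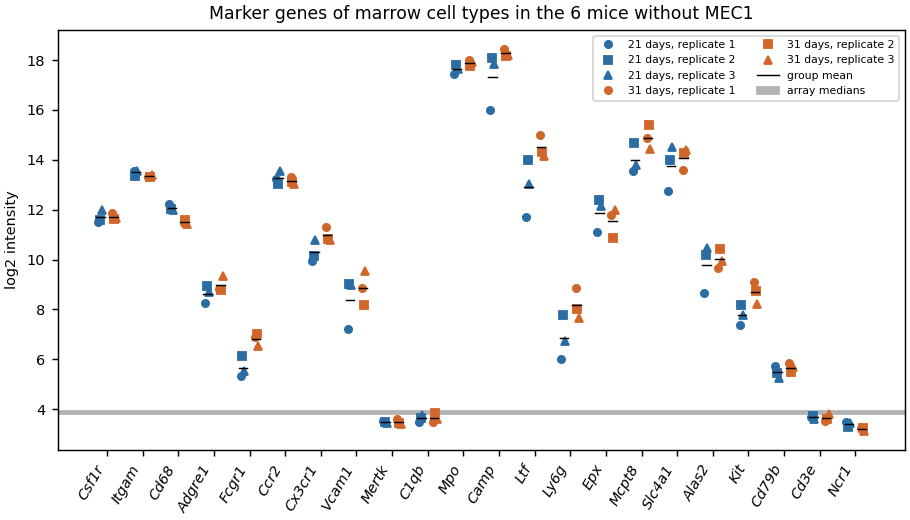
Log2 intensity (vertical axis) of marker genes of marrow cell types in each mouse, blue at 21 days and orange at 31 days, with black lines at group means and a grey band over the range of the array medians. Monocyte, granulocyte and red cell markers stood well above the band, while Mertk, C1qb, Cd3e and Ncr1 lay in or below it, and 21 d replicate 1 was lowest for Camp, Ltf, Slc4a1 and Alas2.

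The comparison of 31 with 21 days asks what changes with age and time in this fraction when no leukemia is present. No cluster passed an adjusted p of 0.05 (limma, Benjamini-Hochberg over 33403 clusters, 0% called), and the smallest adjusted p was 0.0822. At an unadjusted p under 0.05 there were 2815 clusters, 8.43% of those tested. No gene below is therefore called as changed, and the values describe these 6 mice. In 1127 of the 17955 genes all 3 values at 31 days lay below all 3 values at 21 days, 6.28% of genes, and in 1629 genes, 9.07%, they lay above. The median difference over genes was 0.05, and the middle 95% of genes lay between -0.60 and 0.64. The lower side held the larger differences: 131 genes (0.73%) were at least 2-fold lower at 31 days and 60 (0.334%) at least 2-fold higher.

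The genes named first were those with the smallest p among genes whose groups did not overlap, 10 in each direction, leaving out predicted genes, clone and Rik names, olfactory and vomeronasal receptors, microRNAs, small nucleolar RNAs and antigen receptor segments. Those lower at 31 days had the smaller p values, and several are known to be induced by growth factors, hypoxia or inflammatory signals. Emp1, a membrane protein of the epithelial membrane protein family, stood at 11.52, 11.92 and 11.43 at 21 days and at 8.59, 9.02 and 8.97 at 31 days. The groups were far apart, and the difference of -2.76 (95% interval -3.23 to -2.30, SE 0.193) was 6.79-fold, with a limma adjusted p of 0.0822. Vegfa, the vascular growth factor, stood at 10.15, 10.12 and 10.01 and then at 8.42, 8.35 and 8.62, a difference of -1.63 (SE 0.129, limma adjusted p = 0.0822). Its values were close together at each day and far apart between days. Fem1c, a substrate receptor of a ubiquitin ligase, stood at 11.93, 11.94 and 11.84 and then at 10.14, 10.38 and 10.36, a difference of -1.61 (SE 0.125, limma adjusted p = 0.0822). These 3 genes, and Gm26187, a predicted pseudogene outside the naming rule, passed where only 1 cluster per gene was tested, each with an adjusted p of 0.0161 (limma). With array weights Emp1, Vegfa and Fem1c each had a limma adjusted p of 0.0401, and with all 12 arrays in the fit Emp1 and Vegfa had 0.0278 and 0.00306.

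Other genes of this group were regulators of signalling. Tiparp, an ADP-ribosyltransferase induced by the aryl hydrocarbon receptor, stood at 11.93, 11.85 and 11.47 at 21 days and at 9.20, 10.04 and 9.44 at 31 days. Irs2, an adaptor of the insulin receptor, stood at 12.48, 12.69 and 12.71 and then at 10.41, 10.84 and 11.28. By the choice of these genes the groups did not overlap, and in both the spread was wider at 31 days. Tgif1, a repressor of TGF-beta signalling, Ptger4, a prostaglandin E2 receptor, and Errfi1, an inhibitor of the EGF receptor, differed by -1.45, -1.52 and -1.32, and Tmem189 by -1.21. For Tiparp, Irs2, Tgif1, Ptger4, Errfi1 and Tmem189 the limma adjusted p lay between 0.243 and 0.258. When each mouse was left out in turn, the difference of Emp1 ranged from -2.86 to -2.61 and that of Tiparp from -2.43 to -2.01.

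**Figure D2:**
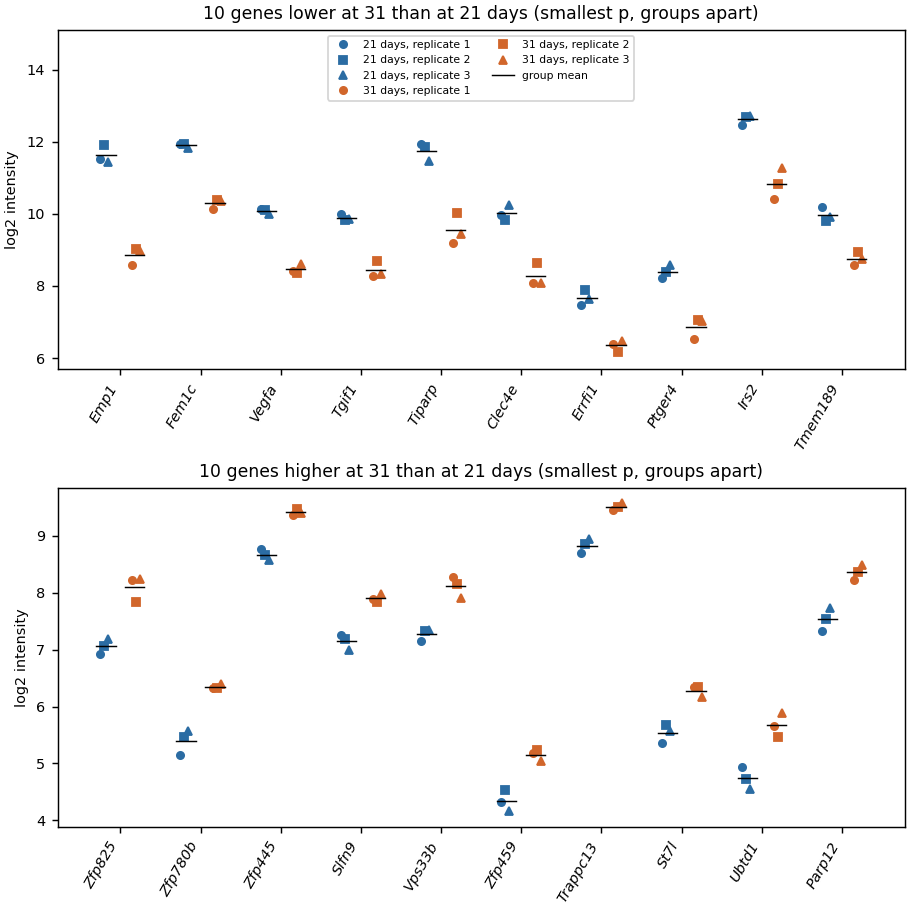
Log2 intensity (vertical axes) in each mouse for the 10 genes with the smallest p among those lower at 31 days (upper panel) and among those higher (lower panel), predicted genes and small RNAs left out, blue at 21 days, orange at 31 days, black lines at group means. The genes were chosen because the groups did not overlap, and none passed the adjusted threshold of 0.05. The lower genes differed by 1.21 to 2.76 and the higher genes by 0.68 to 1.04.

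The 10 genes named as higher at 31 days differed by less than the 10 named as lower. They did not hold the largest rises: several genes described further on, among them Snord14e, Ltf, Snora31, Igtp and Fcgr1, exceeded each of the 10 higher genes. Zfp825, Zfp780b, Zfp445 and Zfp459 encode zinc finger proteins, and they differed by 1.04, 0.96, 0.75 and 0.82. Zfp780b stood at 5.14, 5.46 and 5.57 at 21 days and at 6.33, 6.32 and 6.40 at 31 days, so that its 3 late values were nearly equal. Slfn9, of the Schlafen family, and Parp12, an interferon-induced ADP-ribosyltransferase, differed by 0.75 and 0.83. Vps33b and Trappc13, which act in vesicle traffic, differed by 0.84 and 0.68, and St7l and Ubtd1 by 0.75 and 0.93. The limma adjusted p values of these 10 genes lay between 0.26 and 0.272. After these values were seen, all symbols formed of Zfp and a number were counted: 61 of 309 were higher without overlap (19.7%, against 9.07% of all genes) and 17 lower (5.5%), with a median difference of 0.10. The 4 named above are among the 61.

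The regulators of NF-kB stood lower at 31 days. Of 20 genes in this list 19 were tested, 18 had a negative difference, the median was -0.50 against 0.05 for all genes, and 12 were lower without overlap (63.2%, against 6.28% of all genes). None was higher without overlap, and none passed the adjusted threshold (smallest limma adjusted p 0.26). Without 21 d replicate 1, 16 of the 19 were lower without overlap, where 11.7% of all genes were. The median ranged from -0.60 to -0.42 when each mouse was left out in turn.

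Among the subunits, Rel, which encodes c-Rel, stood at 14.71, 14.45 and 14.31 at 21 days and at 11.71, 12.86 and 12.56 at 31 days. The groups did not overlap, and the difference was -2.11 (SE 0.308, limma adjusted p = 0.26). Nfkb2, the p100 precursor, stood at 7.57, 7.46 and 7.64 and then at 6.84, 6.98 and 7.03. Relb stood at 6.60, 6.77 and 6.62 and then at 6.14, 5.80 and 6.14. Rela, which encodes the p65 subunit, overlapped between the days and differed by -0.45.

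The inhibitors were lower too. Tnfaip3, the ubiquitin-editing enzyme A20, stood at 11.51, 11.67 and 11.65 at 21 days and at 9.43, 10.64 and 10.36 at 31 days, a difference of -1.47 (SE 0.312, limma adjusted p = 0.32). Nfkbie, an inhibitory IkB protein, stood at 7.26, 7.58 and 7.72 and then at 6.27, 6.81 and 6.44. Nfkbia, its best known relative, stood at 12.27, 13.08 and 12.92 and then at 11.33, 12.17 and 11.42. In each of these genes the groups were apart, and in each 31 d replicate 1 was lowest. Zc3h12a, an endonuclease that destroys cytokine mRNA, differed by -0.77, Nfkbib by -0.88, Ptgs2, which makes prostaglandin, by -0.59 and Birc3 by -0.47. Tnip1, Sod2 and Tnfaip2 overlapped, with differences of -0.03, -0.09 and 0.11. Relb, Nfkbia, Nfkbib, Zc3h12a, Ptgs2, Birc3, Rela, Tnip1, Sod2 and Tnfaip2 were singled out after their values were seen.

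The start-site regions of 3 of these genes are shown because they hold the sequence that NF-kB binds. Each runs from 250 bases before the start to 50 bases after it, 5′ to 3′ on the gene's strand, from RefSeq on GRCm38.p6, and capitals mark stretches that match the kappaB motif on either strand. Rel lies at chr11:23770920-23771219 on the minus strand, Nfkbie at chr17:45555450-45555749 on the plus strand and Tnfaip3 at chr10:19015361-19015660 on the minus strand.
Rel: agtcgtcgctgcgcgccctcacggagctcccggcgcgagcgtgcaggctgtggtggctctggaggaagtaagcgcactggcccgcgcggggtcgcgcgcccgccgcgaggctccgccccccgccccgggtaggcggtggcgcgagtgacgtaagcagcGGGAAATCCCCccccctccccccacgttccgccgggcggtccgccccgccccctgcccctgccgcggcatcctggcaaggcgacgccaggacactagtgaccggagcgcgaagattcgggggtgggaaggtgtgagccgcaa
Nfkbie: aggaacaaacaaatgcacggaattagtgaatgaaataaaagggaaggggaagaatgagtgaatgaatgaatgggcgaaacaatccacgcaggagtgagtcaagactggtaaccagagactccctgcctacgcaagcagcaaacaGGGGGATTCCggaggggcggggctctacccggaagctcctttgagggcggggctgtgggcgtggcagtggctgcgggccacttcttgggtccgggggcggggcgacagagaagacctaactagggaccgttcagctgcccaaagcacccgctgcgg
Tnfaip3: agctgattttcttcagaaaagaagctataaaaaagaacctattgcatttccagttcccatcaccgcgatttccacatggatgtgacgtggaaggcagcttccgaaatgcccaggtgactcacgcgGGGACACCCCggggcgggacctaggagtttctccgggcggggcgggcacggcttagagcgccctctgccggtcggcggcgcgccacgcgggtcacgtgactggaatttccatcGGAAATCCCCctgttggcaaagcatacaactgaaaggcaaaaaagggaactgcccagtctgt
The motif was present in 8.46% of 32851 start-site regions of the table. Among the members lower without overlap it was present in 8 of 14 regions, in 6 of the 11 genes counted. Counts of members left out the chromosome that holds Fem1c, while the share over all regions includes it. Among the other members tested, Bcl3, Sod2, Tnfaip2 and Tnip1 held it, 4 of 6 genes. A match is a description of letters and not evidence of binding.

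Emp1 is shown for the same kind of region because it had the smallest p of all named genes. Its region lies at chr6:135362681-135362980 on the plus strand, and capitals mark matches to the AP-1 motif TGANTCA, which reads the same on both strands.
Emp1: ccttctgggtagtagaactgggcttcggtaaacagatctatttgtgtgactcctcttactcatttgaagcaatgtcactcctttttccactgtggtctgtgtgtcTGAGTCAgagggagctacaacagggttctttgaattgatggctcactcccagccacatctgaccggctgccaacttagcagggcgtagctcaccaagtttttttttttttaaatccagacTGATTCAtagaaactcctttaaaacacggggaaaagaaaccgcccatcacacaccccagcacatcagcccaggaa
AP-1 matches were present in 7.81% of all regions. Of the 10 lower genes 8 were counted: Fem1c was left out with its chromosome, and another had no start-site region under its symbol. Among those counted, Emp1 alone held this motif.

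Pattern recognition receptors divided. Of 25 genes tested, 8 were lower without overlap (32%, against 6.28% of all genes) and 2 higher (8%, against 9.07%), with a median of -0.18 that was -0.39 without 31 d replicate 2, -0.02 without 31 d replicate 3 and -0.07 without 21 d replicate 1 or 2. Nlrp3, the sensor of an inflammasome, stood at 13.44, 13.22 and 13.38 at 21 days and at 10.24, 11.29 and 11.57 at 31 days, a difference of -2.31 (SE 0.343, limma adjusted p = 0.26). Clec4e, the receptor Mincle, stood at 9.98, 9.84 and 10.24 and then at 8.09, 8.65 and 8.09 (difference -1.74, limma adjusted p = 0.256). Tlr2, a receptor for bacterial lipoproteins, stood at 10.89, 10.67 and 10.92 and then at 9.35, 9.93 and 9.68 (difference -1.17). All 3 values at 31 days lay below those at 21 days in each of these genes, and the late values were more spread in Nlrp3. Cd14, the co-receptor for lipopolysaccharide, differed by -0.90. Without 21 d replicate 1 the count of lower members was again 8 (32%), while the share of all genes that were lower rose from 6.28% to 11.7%.

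Immediate-early genes also stood lower in part. Of 27 tested, 9 were lower without overlap (33.3%, against 6.28% of all genes) and none higher (against 9.07%). The median was -0.33, and it was -0.16 without 21 d replicate 2. Without 21 d replicate 1, 10 were lower (37%, against 11.7% of all genes). Fosb, a partner in the AP-1 factor, stood at 17.68, 17.29 and 17.33 and then at 15.31, 16.17 and 16.42, a difference of -1.47 (SE 0.304, limma adjusted p = 0.315). Klf6, a zinc finger transcription factor, stood at 15.96, 16.44 and 16.18 and then at 15.03, 15.35 and 15.41. Ier5 and Csrnp1 differed by -0.65 and -0.91. The best known members did not follow: Fos, Jun and Egr1 overlapped between the days, with differences of 0.29, 0.21 and -0.11, and were picked out for that after their values were seen. Nr4a1, an orphan nuclear receptor that marks non-classical monocytes, stood at 13.88, 14.89 and 14.62 and then at 12.04, 12.26 and 13.85, so that the lowest early and the highest late value almost met (difference -1.75, limma adjusted p = 0.475).

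Of 16 circadian clock genes 6 were lower without overlap (37.5%, against 6.28% of all genes) and 1 higher (6.25%, against 9.07%), with a median of -0.26. Bhlhe40, a repressor of the clock that also acts in macrophages, stood at 7.13, 7.64 and 8.14 and then at 5.78, 6.14 and 6.14. Per1 and Per2, the repressors of the feedback loop, differed by -1.19 and -0.83, and Nr1d1, which encodes REV-ERB alpha, by -1.12. The limma adjusted p values of Bhlhe40, Per1, Per2 and Nr1d1 lay between 0.26 and 0.423. Arntl, the activator that Nr1d1 represses, was the member that was higher, at 5.95, 6.06 and 5.90 and then 6.43, 6.21 and 6.18, and it was picked out after its values were seen. Without 21 d replicate 1, 7 of the 16 were lower without overlap (43.8%, against 11.7% of all genes) and the median was -0.12. The hour at which mice were killed is not given in the sources used here, and its part in the result was not tested.

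In other lists of stimulus-responsive genes, whose medians lay nearer to 0, some members had lower values at 31 days. The members named first here were gathered for being lower, and other members of each list were higher. Cdkn1a, the p53 target p21, stood at 12.60, 13.28 and 12.79 and then at 10.55, 11.37 and 10.95, a difference of -1.93 (SE 0.269, limma adjusted p = 0.26). Its list of 15 had a median of -0.13, with 10 negative and 5 positive differences, among the latter Bcl2 at 0.59. Cd86, a costimulatory ligand, stood at 11.55, 10.33 and 10.44 and then at 8.04, 8.73 and 8.78, a difference of -2.26, or -1.87 without 21 d replicate 1. The class II genes listed with it had a median of 0.14. Ddit3, a transcription factor of the unfolded protein response, differed by -1.54 where its list had a median of 0.12, with 12 positive and 6 negative differences. Hif1a, the hypoxia factor, and Pfkp, a glycolytic kinase, differed by -0.67 and -0.82 where the glycolysis list had a median of 0.03. Ccl3, a chemokine, stood at 13.67, 13.56 and 13.75 and then at 12.19, 13.27 and 12.53, and Cxcl16, another chemokine, differed by -0.96. Il1b and Tnf overlapped, with differences of -0.39 and -0.63, and were looked up after these values were seen.

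**Figure D3:**
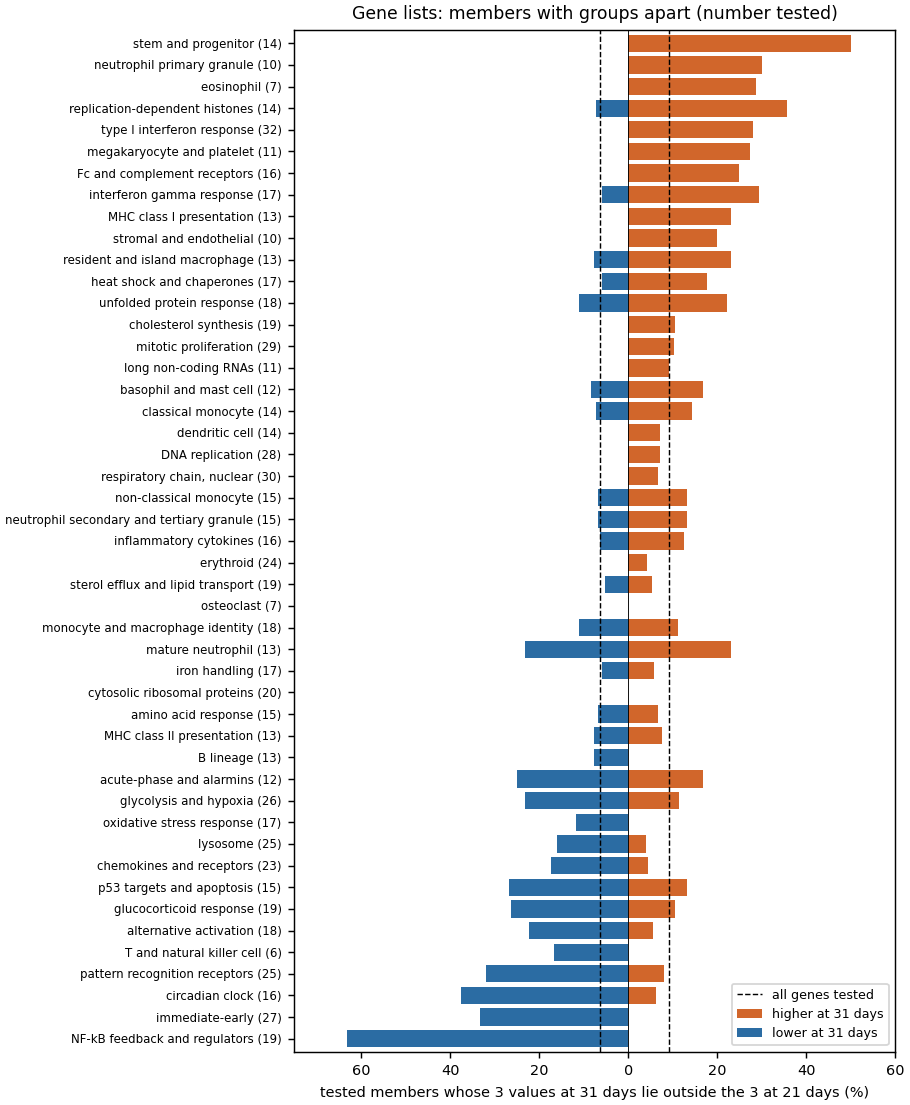
For each gene list (number tested in brackets), the share of tested members in percent (horizontal axis) whose 3 values at 31 days lay wholly above (orange, right) or wholly below (blue, left) the 3 at 21 days. Dashed lines mark the same shares over all genes, 9.07% and 6.28%, and the NF-kB list reached furthest to the left and the stem and progenitor list furthest to the right.

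Genes of stem and progenitor cells stood higher at 31 days. Of 14 tested, 7 were higher without overlap (50%, against 9.07% of all genes) and none lower, with a median of 0.51. Without 21 d replicate 1, 7 were higher (against 12.4% of all genes) and 1 lower. Myb, a transcription factor of immature blood cells, stood at 7.90, 8.75 and 8.28 at 21 days and at 9.53, 9.38 and 9.37 at 31 days, a difference of 1.12 (SE 0.226, limma adjusted p = 0.305). Flt3, a cytokine receptor of early progenitors and dendritic cells, stood at 6.77, 6.91 and 6.86 and then at 7.78, 7.40 and 7.46. Kit, the receptor for stem cell factor, stood at 7.37, 8.18 and 7.79 and then at 9.08, 8.73 and 8.23, where the highest early and the lowest late value nearly met. Adgrl4 differed by 0.58. The progenitor markers Cd34 and Gata2 overlapped between the days, with differences of 0.64 and 0.14. Kit also marks mast cells, and the basophil and mast cell list had a median of 0.55, or 0.31 without 21 d replicate 1. Its part in the values of Kit was not tested.

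Interferon genes stood slightly higher. Of 32 genes of the type I response, 9 were higher without overlap (28.1%, against 9.07% of all genes) and none lower (against 6.28%), with a median of 0.34. With 21 d replicate 1 left out, 12 were higher (37.5%, against 12.4% of all genes) and the median was 0.27. Usp18, which removes ISG15 from proteins and curbs the response, stood at 7.02, 7.68 and 7.49 and then at 8.24, 8.61 and 8.08, a difference of 0.91 (SE 0.226, limma adjusted p = 0.375). Stat2, a transcription factor of the response, stood at 8.19, 8.33 and 8.41 and then at 9.28, 9.30 and 8.66. In Usp18 and Stat2 the 3 late values were the 3 highest. Cmpk2 and Rtp4 differed by 0.68 and 0.58. Of 17 genes induced by interferon gamma, 5 were higher (29.4%, against 9.07% of all genes) and 1 lower (5.88%, against 6.28%) without overlap, with a median of 0.27, or 0.16 without 21 d replicate 1. Igtp, a GTPase of this set, stood at 5.57, 6.14 and 6.32 and then at 7.97, 6.82 and 7.34 (difference 1.37, limma adjusted p = 0.373).

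The identity genes of monocytes had differences in both directions. The 18 genes of this list had a median of 0.00, with 2 higher and 2 lower without overlap (11.1% each, against 9.07% and 6.28% of all genes, which is near the background). When 21 d replicate 1 was left out, 2 were higher and 4 lower (22.2%, against 11.7% of all genes). The 14 genes of classical monocytes had a median of 0.04. Fcgr1, the high-affinity IgG receptor, stood at 5.32, 6.12 and 5.54 and then at 6.91, 7.03 and 6.55, a difference of 1.17 (SE 0.246, limma adjusted p = 0.32). Cd68, a lysosomal protein, stood at 12.21, 12.04 and 11.97 and then at 11.48, 11.60 and 11.43 (difference -0.57, limma adjusted p = 0.336). Tnfsf13b, which encodes the B cell survival factor BAFF, stood at 4.83, 5.31 and 5.50 and then at 6.14, 6.16 and 6.20 (difference 0.95, limma adjusted p = 0.299). The 15 genes of non-classical monocytes had a median of 0.19, with 11 positive and 4 negative differences, from -1.75 for Nr4a1 to 0.68 for Cx3cr1. Clec4a3, of the same list, differed by 0.65, or 0.40 without 21 d replicate 1.

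Granule, red cell and cell cycle genes had positive medians that were smaller, or about 0, without 1 mouse. The median of 24 erythroid genes was 0.43, and it was -0.03 without 21 d replicate 1, in which these genes lay a median of 1.20 below their own means. The medians of 28 DNA replication and 29 mitotic genes went from 0.27 and 0.25 to -0.06 and -0.01. Those of the secondary and tertiary granule list and of the nuclear respiratory chain list went from 0.44 and 0.20 to -0.03 and 0.01, and the former was 0.04 without 31 d replicate 1. Ltf, which encodes lactoferrin of the secondary granules, stood at 11.72, 14.01 and 13.04 and then at 15.01, 14.31 and 14.16, a difference of 1.57 that was 0.97 without 21 d replicate 1. The median of 10 primary granule genes went from 0.60 to 0.28 without 21 d replicate 1, and it was 1.31 when the mean of the hybridisation controls entered the fit. Ctsg, the granule protease cathepsin G, stood at 10.75, 11.95 and 11.41 and then at 12.85, 12.44 and 12.23, and Ms4a3, a gene of granulocyte and monocyte progenitors, differed by 1.25. Whether the neutrophil content of the fraction took part in other values was not tested. By contrast, NF-kB regulators lay only 0.07 above their means in 21 d replicate 1 and 0.26 and 0.30 above in the other mice of that day.

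**Figure D4:**
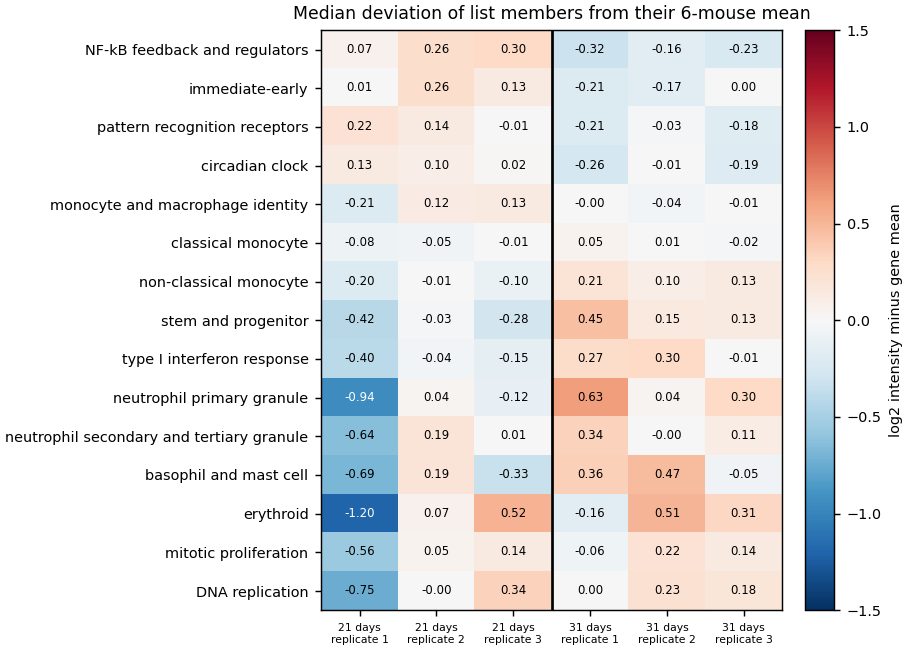
Median over list members of the log2 intensity minus each gene's mean of 6 mice, by list (rows) and mouse (columns), red above and blue below the mean, with the black line between 21 and 31 days. 21 d replicate 1 reached -1.20 for erythroid and -0.94 for primary granule genes, while NF-kB regulators were positive in the 3 mice at 21 days and negative in the 3 mice at 31 days.

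The spread between mice was itself uneven. The median SD within a day was 0.21 at 21 days and 0.16 at 31 days, and 63.1% of genes had the larger SD at 21 days. Among the 10 genes with the largest spread were the red cell genes Rhag and Rhd, of the Rh complex. Rhag stood at 12.54, 14.56 and 15.26 and then at 14.30, 14.96 and 15.28, lowest in 21 d replicate 1. Neat1, the long non-coding RNA of paraspeckles, stood at 11.69, 9.17 and 9.69 and then at 9.55, 11.13 and 10.20, highest in the same mouse. Rhd, Fads3, Plpp1, Ahcy, Redrum, Icam4 and Mc5r were also lowest in 21 d replicate 1, and Tas2r143 was highest there. The Ahcy values rest on the platform's symbol for its cluster, and the place of that cluster in the genome was not checked. The days overlapped for all 10 genes.

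Small non-coding RNAs held the largest single difference among those named. They were named by the smallest p among non-coding genes whose groups did not overlap. Snord14e, a small nucleolar RNA gene that guides methylation of ribosomal RNA and lies in an intron of Hspa8, stood at 12.85, 12.21 and 13.11 at 21 days and at 16.59, 15.88 and 15.41 at 31 days. All late values lay well above all early values, and the difference of 3.24 (SE 0.362) was 9.43-fold, with a limma adjusted p of 0.243. The platform labels the Snord14e cluster as unmapped, so its values are not tied to the place in Hspa8. Hspa8 itself lay at the top of the scale in all mice, from 19.88 to 19.93, where differences may not be seen. Rnu12, the U12 RNA of the minor spliceosome, and Snora31 differed by 1.00 and 1.44, and Snord111 by -1.64. The limma adjusted p values of Rnu12, Snora31 and Snord111 lay between 0.266 and 0.272.

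Among non-coding genes chosen because their groups did not overlap, the microRNA genes with the smallest p were Mirlet7d and Mir3109, and both were lower at 31 days. Their mature products are printed because the cluster measures the precursor gene and cannot say which arm is present. Sequences are from RefSeq on GRCm38.p6, 5′ to 3′, with the seed, bases 2 to 8, in capitals.
mmu-let-7d-5p: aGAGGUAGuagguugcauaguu
mmu-let-7d-3p: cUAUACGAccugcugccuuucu
mmu-miR-3109-5p: aAUGGAUGcgaugguucccaugcu
mmu-miR-3109-3p: uAGGGCCAucucauccagaua
The let-7d arms lie at chr13:48536078-48536099 and chr13:48536024-48536045 on the minus strand, and the miR-3109 arms at chr9:69456958-69456981 and chr9:69456997-69457017 on the plus strand. No seed was shared among the 4. Mirlet7d stood at 7.85, 7.50 and 7.69 and then at 6.59, 6.80 and 6.54, a difference of -1.04 (SE 0.148, limma adjusted p = 0.26). Mir3109 stood at 6.15, 6.12 and 5.60 and then at 4.68, 4.54 and 4.05, a difference of -1.53 (SE 0.233, limma adjusted p = 0.26). That the groups were apart in both follows from this choice. Mirlet7a-1 and Mirlet7f-1, neighbours of Mirlet7d on chromosome 13 that were looked up afterwards, overlapped, with differences of 0.12 and 0.20.

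The mice with MEC1 were used to ask whether time differences in healthy mice differed from those under leukemia. The difference of differences was called for 1 of 33403 clusters (0.00299%, limma on 12 arrays), Il1r2, and for 0 of the 20 named genes (adjusted p 0.113 to 0.998, limma). The count of clusters depended on the processing, with 17 after quantile normalization, 1588 with array weights and 1 to 5 when single arrays were left out. At an unadjusted p under 0.05 there were 7 of the 10 lower and 5 of the 10 higher genes, where 15% of all genes were, but the control values that chose these genes also enter the difference. Il1r2, the decoy receptor for interleukin 1, stood at 7.76, 8.13 and 7.31 and then at 4.93, 6.06 and 6.03 without MEC1, a difference of -2.06 (SE 0.366, limma adjusted p = 0.272). With MEC1 its mean went from 7.26 to 13.65, a difference of 6.39 (limma adjusted p = 0.00107), so that the time differences themselves differed by 8.45 (SE 0.649, limma adjusted p = 0.00213). Of the 10 genes lower at 31 days without MEC1, 9 also had a negative difference with MEC1, with medians of -1.62 and -0.74, and Clec4e was the exception at 0.68. Emp1 differed by -1.90 with MEC1 (limma adjusted p = 0.0431). Of the 10 higher genes, 4 had a positive difference with MEC1, with medians of 0.82 and -0.10. Over all genes the median difference with MEC1 was -0.06, and the share of all genes in either direction was not counted. Hybridisation controls were higher with MEC1, at 11.80 to 13.18, than without, at 10.47 to 10.87, and their part in these values was not tested.

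**Figure D5:**
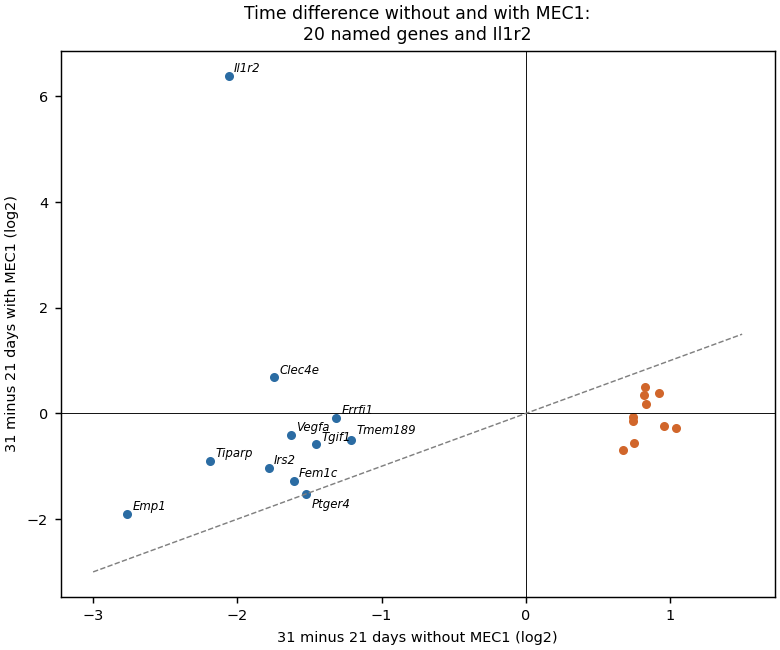
Difference between 31 and 21 days on the log2 scale without MEC1 (horizontal axis) and with MEC1 (vertical axis) for the 10 lower genes and Il1r2 (blue, named) and the 10 higher genes (orange), where the dashed line marks equal values. Il1r2 lay at -2.06 and 6.39, and 9 of the 10 lower genes lay below 0 on both axes. Over all genes the median difference with MEC1 was -0.06.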

How the data were processed

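The deposited values were log2 intensities per transcript cluster that the authors made with Affymetrix Expression Console and RMA, per the submitters' processing notes, which give no version. Of 72688 features, 6732 controls were left out, and 31258 of the 65956 clusters had 1 symbol in the platform table (1492 had several and 33206 none). Depth does not apply to arrays, whose number limits the precision.

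Groups followed the labels, and 31 minus 21 days was fitted to the 6 arrays with limma 3.58.1 in R 4.3.3, two-sided, adjusted by Benjamini-Hochberg over 33403 clusters, threshold 0.05. The difference from mice with MEC1 was fitted to 12 arrays. The fit was tested on simulated data. Members, 48 gene lists and markers were chosen with earlier results of these data known. Named were the genes with the smallest p and groups apart (10 in each direction, as none passed) and 6 non-coding genes by the same rule. Also named were up to 4 members of each list with the smallest p, all markers, and the 10 genes of largest spread. Others are said to have been chosen afterwards. Alternatives were other filters, normalizations, weights, moderation, arrays, 1 cluster per gene, a 1.5-fold minimum, a replicate block, the hybridisation-control level as a covariate, and leaving out each array. Counts of groups apart without 21 d replicate 1 were added after seeing the data. Deviations of arrays with the same number correlated at -0.31, -0.25 and -0.098, and those of arrays with different numbers at -0.11 to 0.32. With 3 arrays per day, centred on their own mean, these values cannot decide whether a number marks a shared litter or batch. Numbers were not used as pairs in the main fit.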

Additional observations from a re-analysis of the deposited data

Results flagged for a closer look

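Il1r2, the decoy receptor for interleukin 1, was noted because its time difference was not the same with and without MEC1, by a test of the difference itself (limma on 12 arrays, adjusted p = 0.00213). It differed by -2.06 without MEC1, which was not called (limma adjusted p = 0.272), and by 6.39 with MEC1 (limma adjusted p = 0.00107). The test does not address whether the directions are opposite.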

How the results depend on the processing

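The count of clusters past the threshold was 0 with no filter, a filter at the 70th percentile, quantile normalization, centring, trend and robust moderation, the covariate and the leaving out of any 1 of the 6 mice. It was 5 with array weights (1 higher and 4 lower), 3 with all 12 arrays (3 lower) and 4 with 1 cluster per gene (4 lower). With the replicate number as a block it was also 0 (smallest adjusted p 0.742, limma), and the block changed no other call. At an unadjusted p under 0.05 the count ranged from 1872 to 5566 clusters over these settings. The difference of time changes with MEC1 minus without was called for 17 clusters after quantile normalization and 1588 with array weights. Leaving out single arrays gave 1 to 5. Among mice with MEC1, dropping replicate 1 of 21 d gave 5, replicate 3 of 31 d gave 4 and replicate 2 of 31 d gave 3, and dropping the healthy replicate 1 of 31 d gave 2. Above the 70th percentile in all 6 arrays there were 17095 clusters, against 27932 above the median. When the mean of the hybridisation controls entered the fit, Epx turned from -0.33 to 0.75, Neat1 from 0.11 to -1.55, the pattern recognition median was -0.60, the primary granule median 1.31 and the histone median 0.93, and the cause was not tested. Of the other gene and list values, 4951 kept their direction and side of the threshold or, for list medians, moved less than the spread. Another 74 were list medians that moved by more, or gene differences whose sign turned. Without 21 d replicate 1, for example, Alas2 turned from 0.23 to -0.32 and Mc5r from 0.35 to -0.39. A further 8 values of Emp1, Vegfa and Fem1c passed the threshold.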

Other observations

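Heat shock genes and histone genes, outside the groups described above, also stood higher at 31 days in part. Of 17 chaperone genes 3 were higher (17.6%, against 9.07% of all genes) and 1 lower (5.88%, against 6.28%) without overlap, with a median of 0.27, or 0.17 without 21 d replicate 1. Hspa1a, an inducible chaperone, stood at 8.87, 9.54 and 10.48 and then at 11.68, 10.16 and 10.69, and its groups overlapped. Among replication-dependent histones, H1f3 and H1f1 differed by 1.05 and 0.85 while H1f2 differed by -1.09, at 15.57, 16.58 and 16.35 and then 14.54, 15.17 and 15.51 (limma adjusted p = 0.508). The histone list median of 0.46 was 0.09 without 21 d replicate 1. Slc40a1, the iron exporter ferroportin, differed by 0.98, or 0.59 without 21 d replicate 1, and Trf, transferrin, by -0.50, in an iron list with a median of 0.03, or -0.15 without that mouse. Over 25 lysosomal genes the median was -0.14, 4 were lower without overlap (16%, against 6.28% of all genes) and 1 higher (4%, against 9.07%). Without 21 d replicate 1, 11 were lower (44%, against 11.7% of all genes) and 1 higher (4%, against 12.4%). Differences depended on level: genes below a log2 intensity of 6 had a median difference of -0.01 (8539 genes) and those from 6 to 8 a median of 0.12 (4127 genes). Of the former, 6.51% were higher and 6.8% lower without overlap, and of the latter 13.3% and 5.62%. The shares of all genes given beside the lists were not matched for level.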
